A study of Mus musculus with 19 samples.

Results

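Gfap, Vim, Nes and Synm encode intermediate filament proteins of reactive astrocytes, and their transcripts were followed in mouse hippocampus 4 days after status epilepticus in mice with or without EZH2 in neurons. The members were chosen by gene symbol. They are 4 of 55416 genes in the deposited read count table, and 32474 of these genes had at least 1 read. The test covered 19234 genes, all 4 members among them. Status epilepticus, a prolonged seizure, was induced by repeated low-dose kainate, an agonist of glutamate receptors, and controls received saline. The 19 libraries fall into 4 groups: EZH2(-/-);Syn1Cre(+/-) mice after kainate (EZH2nHom kainate, n = 4) and after saline (EZH2nHom saline, n = 5), and EZH2(+/+);Syn1Cre(+/-) mice after kainate (WT kainate, n = 5) and after saline (WT saline, n = 5). EZH2nHom mice carried floxed EZH2 alleles, and the WT mice were Cre-positive too. The Synapsin1 driver acts in neurons, so cells without it, glia among them, keep EZH2. All mice were on a C57BL6 background, and the tissue is labelled R. Hippocampus with no further explanation of the letter. The labels give no age, and they do not say whether a library is 1 animal, so p-values measure the spread between libraries.

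Intermediate filaments are the flexible cables of the cytoskeleton, and each cell type builds them from its own set of proteins. GFAP is the main filament protein of astrocytes, and a strong increase in it with vimentin is the best known mark of astrocyte reactivity after seizures or injury. Vimentin assembles with GFAP and is also made by endothelial cells, fibroblasts and microglia, nestin is the filament protein of neural stem cells and returns in reactive astrocytes, and synemin is a large partner that assembles with vimentin or GFAP rather than alone. In mature hippocampus nestin marks the stem cells of the dentate gyrus and parts of the vessel wall.

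The region just before the start of each gene is shown because the members did not move alike after kainate. These are the 250 bases upstream of the RefSeq start in GRCm38.p6, an older build than that of the read counts, on the strand of the gene. Capitals mark matches to the motifs named after the sequences. All 4 members were found in the table of promoters.
Gfap, chr11:102897201-102897450, minus strand: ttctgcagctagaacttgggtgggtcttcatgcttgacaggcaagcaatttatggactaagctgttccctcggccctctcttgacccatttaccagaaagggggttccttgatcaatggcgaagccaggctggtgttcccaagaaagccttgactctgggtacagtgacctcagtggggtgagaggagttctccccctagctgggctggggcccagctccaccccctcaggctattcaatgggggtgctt
Vim, chr2:13574061-13574310, plus strand: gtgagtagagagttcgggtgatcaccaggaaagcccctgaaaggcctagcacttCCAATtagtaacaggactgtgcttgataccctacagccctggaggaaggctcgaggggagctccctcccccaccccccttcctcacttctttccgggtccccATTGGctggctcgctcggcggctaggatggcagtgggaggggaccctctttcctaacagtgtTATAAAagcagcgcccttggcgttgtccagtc
Nes, chr3:87970843-87971092, plus strand: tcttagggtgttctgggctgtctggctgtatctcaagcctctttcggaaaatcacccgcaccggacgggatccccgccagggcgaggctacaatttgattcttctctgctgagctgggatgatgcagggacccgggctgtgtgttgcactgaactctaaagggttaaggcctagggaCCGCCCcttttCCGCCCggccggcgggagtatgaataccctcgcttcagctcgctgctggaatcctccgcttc
Synm, chr7:67759743-67759992, minus strand: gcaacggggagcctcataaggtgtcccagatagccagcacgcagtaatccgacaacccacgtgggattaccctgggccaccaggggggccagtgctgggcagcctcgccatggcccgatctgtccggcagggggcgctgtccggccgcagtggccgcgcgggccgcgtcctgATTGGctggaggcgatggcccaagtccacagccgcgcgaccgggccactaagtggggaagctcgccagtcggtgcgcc
Both strands were searched for the STAT motif with the letters TTCNNNGAA, for the AP-1 motif with the letters TGANTCA and for the palindromic NFI motif. The general promoter elements searched were the GC box, spelled GGGCGG, the core promoter element TATAAA (the TATA box) and the CCAAT box, spelled as its name. No matches in these 4 windows overlapped. The Vim window held a TATA box 32 to 27 bases before the start and CCAAT boxes 196 to 192 and 94 to 90 bases before it, the second on the other strand. The Nes window held GC boxes on the other strand 73 to 68 and 62 to 57 bases before the start, and the Synm window held a CCAAT box on the other strand 78 to 74 bases before it. The Gfap window held no match to these letters, and no member's window matched the STAT, AP-1 or NFI motif. Of 32851 RefSeq windows of the same length, 12.4% held the TATA box, 33.8% the CCAAT box, 32.7% the GC box, 7.02% the STAT motif, 6.75% the AP-1 motif and 0.0365% the NFI motif. GC content was 55.6% for Gfap, 58.4% for Vim, 58.8% for Nes and 70% for Synm, against a median of 52.4% over all windows. A match is a run of letters, and binding was not measured.

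Sequencing depth was 29778706 to 43948317 reads a library in EZH2nHom kainate, 26114855 to 41404459 in EZH2nHom saline, 24496685 to 38436154 in WT kainate and 26607591 to 33649565 in WT saline. Levels are given as CPM, counts scaled to library size with TMM factors, and a member had 319 to 165277 reads in a library. EZH2nHom kainate replicate 2 stood apart from all other libraries on the second principal component (13.9% of the variance), at -108.5 against -19 to 27.5. Ezh2 itself had 14.5 to 19.6 CPM in EZH2nHom kainate, 11.8 to 15.5 CPM in EZH2nHom saline, 10.8 to 20.3 CPM in WT kainate and 9.61 to 12.9 CPM in WT saline. It did not differ between EZH2nHom and WT after saline (log2 difference 0.27 ± 0.16, SE, adjusted p in edgeR's quasi-likelihood test = 0.288) or after kainate (0.21 ± 0.17, adjusted p = 0.473). Counts per gene do not separate a deleted part of Ezh2 or the reads of neurons from those of other cells, so they check no label. The sample codes begin with a prefix that the labels leave unexplained, and 6 WT libraries carry one found in both arms. No prefix occurs in both genotypes, so prefix and genotype cannot be told apart. No prefix occurs in both EZH2nHom arms either, so prefix and kainate cannot be told apart in EZH2nHom. The labels give no sex, and 4 Y-linked genes summed to under 1 CPM in 1 of 4 EZH2nHom kainate, 0 of 5 EZH2nHom saline, 2 of 5 WT kainate and 2 of 5 WT saline libraries.

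After kainate, Gfap, Vim and Nes rose and Synm fell in both genotypes. In EZH2nHom hippocampus 3 of 4 members passed the test as higher and 1 as lower, where 26.1% of all genes tested passed, 14.3% as higher and 11.8% as lower. The test was edgeR's quasi-likelihood test with Benjamini-Hochberg adjustment over all genes tested and a threshold of 0.05. In WT hippocampus the same 3 members passed as higher and Synm as lower, against 9.47% higher and 2.57% lower, 12% in all, of the genes tested. The median log2 change of all genes was -0.02 in each genotype. For every member the kainate libraries lay wholly outside the range of the saline libraries in both genotypes. In EZH2nHom 9.93% of all genes had all kainate libraries above all saline libraries and 9.23% had them all below, and in WT 9.79% and 4.63%. In whole tissue a change in the number of cells and a change in RNA per cell cannot be told apart.

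**Figure D1:**
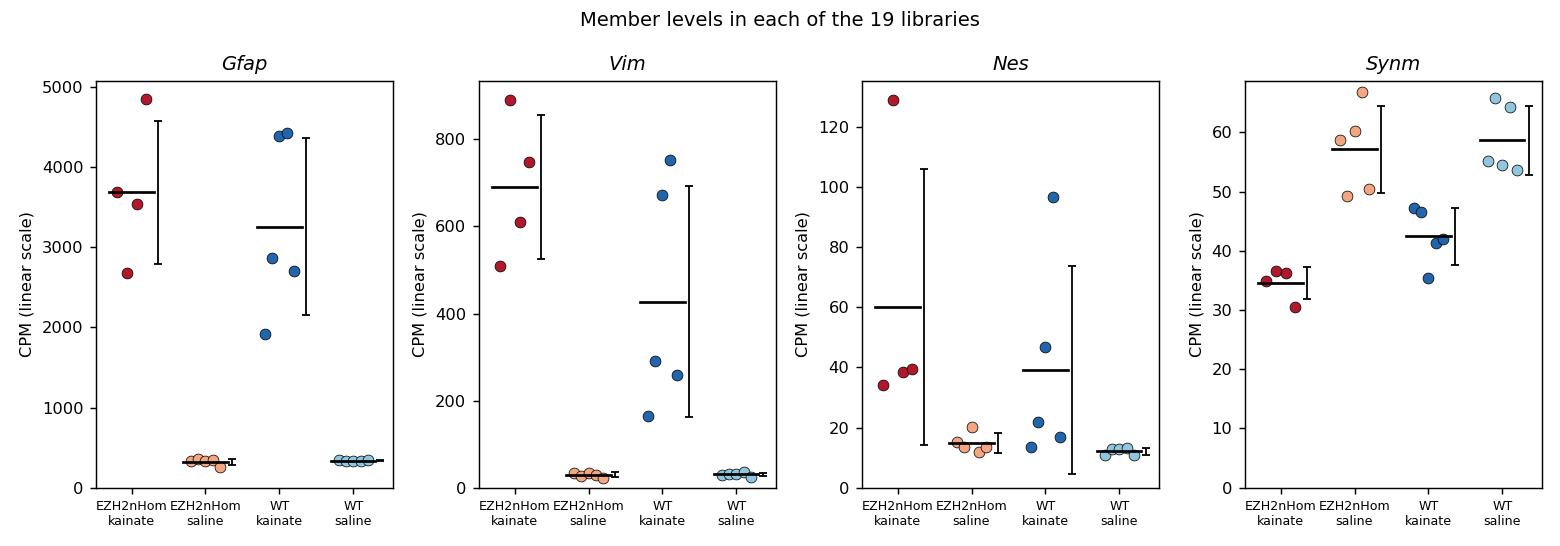
CPM of each member (y axis, linear scale from 0) in each of the 19 libraries by group, with points for libraries, horizontal lines for means and bars for SD. Kainate libraries of Gfap, Vim and Nes lie above, and those of Synm below, every saline library of the same genotype, and Nes has 1 library far above its group at 129 CPM in EZH2nHom kainate.

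Gfap, the main astrocyte filament protein, had 3686, 2672, 3536 and 4842 CPM in replicates 1 to 4 of EZH2nHom kainate, against 333, 358, 329.8, 342 and 259 CPM in replicates 1 to 5 of EZH2nHom saline. Every EZH2nHom kainate library was high, and the lowest of them was 7.47 times the highest saline library. In WT, Gfap had 1916, 2865, 4381, 4423 and 2698 CPM in replicates 1 to 5 after kainate, against 350.3, 329, 330.2, 335 and 346 CPM after saline. Here too the groups were far apart, with replicate 1 the lowest and replicates 3 and 4 the highest of the WT kainate libraries. The log2 change was 3.51 ± 0.21 in EZH2nHom (SE, adjusted p in edgeR's quasi-likelihood test = 9.57e-09), an 11.4-fold higher level. In WT it was 3.27 ± 0.20 (adjusted p in edgeR's test = 1.87e-08), a 9.63-fold higher level. By p-value Gfap ranked 1 of 19234 genes in both comparisons, while by size of the rise it ranked 237 in EZH2nHom and 154 in WT. WT saline libraries were tight around their mean, with a coefficient of variation of 2.88%, against 33.9% in WT kainate.

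Vim, which encodes vimentin, had 510.3, 890.5, 611 and 748 CPM in replicates 1 to 4 of EZH2nHom kainate, against 34.9, 27.9, 34.8, 30.0 and 22.8 CPM in replicates 1 to 5 of EZH2nHom saline. The lowest kainate library was 14.6 times the highest saline library. In WT it had 164, 290.3, 672, 752 and 259 CPM after kainate, against 28.2, 31.3, 31.0, 36.3 and 25.6 CPM after saline. WT kainate replicates 3 and 4 were high and the other 3 low, with no overlap with saline. The log2 change was 4.52 ± 0.36 in EZH2nHom (adjusted p in edgeR's quasi-likelihood test = 8.89e-07), a 22.9-fold higher level, and 3.81 ± 0.34 in WT (adjusted p = 5.14e-06), a 14.0-fold higher level. By size of the rise Vim ranked 101 of 19234 genes in EZH2nHom and 91 in WT, ahead of Gfap in both. Its spread in WT kainate was wide, with a coefficient of variation of 62.1%, against 13.1% in WT saline.

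Nes, which encodes nestin, had 34.1, 129, 38.6 and 39.3 CPM in replicates 1 to 4 of EZH2nHom kainate, against 15.3, 13.5, 20.2, 11.9 and 13.6 CPM in replicates 1 to 5 of EZH2nHom saline. Replicate 2 alone was more than 3 times its mates, and the lowest kainate library was 1.69 times the highest saline library. In WT it had 13.7, 22.0, 46.9, 96.7 and 16.7 CPM after kainate, against 10.8, 12.8, 12.9, 13.2 and 11.03 CPM after saline. Replicates 3 and 4 were high, while the lowest kainate library was only 1.04 times the highest saline library. The log2 change was 2.01 ± 0.49 in EZH2nHom (adjusted p in edgeR's quasi-likelihood test = 0.00546), a 4.04-fold higher level, and 1.68 ± 0.47 in WT (adjusted p = 0.0251), a 3.21-fold higher level. Without EZH2nHom kainate replicate 2 the EZH2nHom change was 1.32 and still passed (adjusted p in edgeR's test = 0.033). The WT call was lost on leaving out any of 5 libraries. The log2 change was then 1.03 without kainate replicate 4 (adjusted p in edgeR's test = 0.121) and 1.59 without kainate replicate 3 (adjusted p = 0.0603). Without saline replicates 1, 2 or 5 the adjusted p in edgeR's test was 0.056, 0.0506 and 0.058.

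Synm, which encodes synemin, had 35.0, 36.5, 36.2 and 30.6 CPM in replicates 1 to 4 of EZH2nHom kainate, against 58.7, 49.3, 60.2, 66.8 and 50.4 CPM in replicates 1 to 5 of EZH2nHom saline. All kainate libraries were low, and the lowest saline library was 1.35 times the highest of them. In WT it had 47.2, 46.6, 35.3, 41.2 and 42.0 CPM after kainate, against 55.1, 65.7, 54.5, 64.2 and 53.7 CPM after saline. The groups did not overlap, and the lowest saline library was 1.14 times the highest kainate library. The log2 change was -0.72 ± 0.11 in EZH2nHom (adjusted p in edgeR's quasi-likelihood test = 8.36e-05) and -0.47 ± 0.10 in WT (adjusted p = 0.00391), so that kainate levels were 0.605 and 0.724 of saline levels. Exons of Ttc23, on the opposite strand, overlap exons of Synm in GENCODE M21, and the counting strand is not given in the sources used here. Ttc23 had 57 to 210 reads a library, at most 16.5% of the reads of Synm, and did not pass in EZH2nHom (0.34 ± 0.16, adjusted p in edgeR's test = 0.134) or in WT (0.19 ± 0.16, adjusted p = 0.496).

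**Figure D2:**
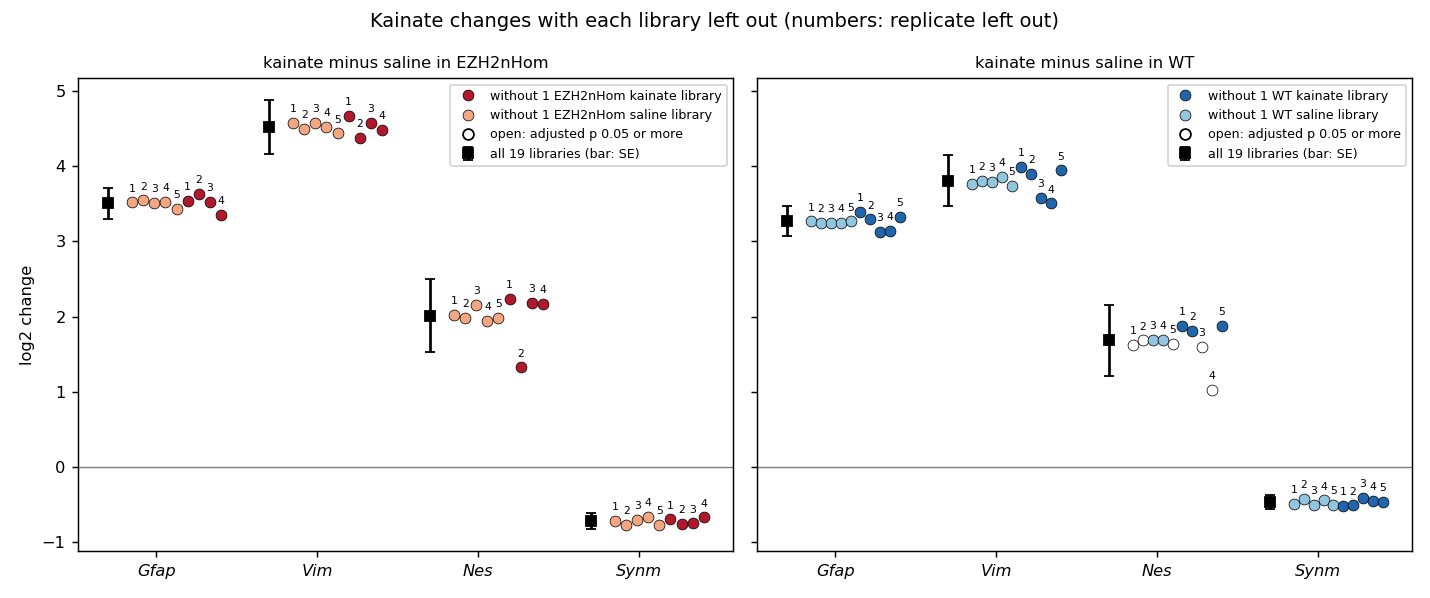
The log2 change of each member after kainate (y axis) in EZH2nHom and in WT, from all 19 libraries (black squares, SE) and with each library of the 2 groups left out (circles, coloured by the group of that library, filled where the adjusted p was under 0.05). Nes moves most, to 1.32 in EZH2nHom and 1.03 in WT, and is the member with open circles.

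Within the WT libraries whose code prefix occurs in both arms, the direction held for every member. Under the first prefix, kainate replicate 1 against saline replicate 4 gave log2 differences of 2.52 for Gfap, 2.17 for Vim, 0.05 for Nes and -0.44 for Synm. Nes was thus nearly level in that pair. Under the other, kainate replicates 2, 3 and 4 against saline replicate 2 gave 3.54, 4.07, 1.85 and -0.69 for the same members. With only these 6 libraries and the prefix as a block, the changes were 3.12 for Gfap, 3.31 for Vim, 1.22 for Nes and -0.60 for Synm. In that fit no gene of the whole table passed (adjusted p in edgeR's test = 0.406 for Gfap, Vim and Synm and 0.559 for Nes).

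Per kb of exon, Gfap was highest in every group. This scale divides CPM by a gene's annotated exonic length, 4218 bases for Gfap, 4743 for Vim, 6416 for Nes and 7933 for Synm. The lengths of the transcripts present were not measured, and a shorter length would raise a gene's value. The order of genes below, that of Synm and Vim after saline included, therefore depends on the annotated lengths. After kainate the order in EZH2nHom was Gfap at 873 ± 212 CPM per kb, Vim at 146 ± 34.9, Nes at 9.39 ± 7.16 and Synm at 4.36 ± 0.348 (SD, n = 4). Every EZH2nHom kainate library had Nes above Synm on this scale, with ranges of 5.31 to 20.1 and 3.85 to 4.61. In EZH2nHom saline the order was Gfap at 76.8 ± 9.04, Synm at 7.20 ± 0.919, Vim at 6.34 ± 1.07 and Nes at 2.32 ± 0.498 (SD, n = 5). There the ranges of Synm and Vim overlapped, while within a library Synm was above Vim in 5 of 5. In WT kainate Gfap stood at 772 ± 262 CPM per kb, Vim at 90.1 ± 56.0, Nes at 6.11 ± 5.41 and Synm at 5.35 ± 0.603 (SD, n = 5), and Nes and Synm overlapped, with Nes the higher in 2 of 5 libraries. In WT saline they stood at 80.2 ± 2.31 for Gfap, 7.39 ± 0.732 for Synm, 6.43 ± 0.844 for Vim and 1.90 ± 0.176 for Nes (SD, n = 5), with the ranges of Synm and Vim overlapping and Synm above Vim within 5 of 5 libraries.

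The genotypes were compared next, to ask whether deletion of EZH2 in neurons was accompanied by another level of these transcripts. After kainate, 0 of 4 members passed, where 7.61% of all genes tested did, 4.56% as higher in EZH2nHom and 3.04% as lower. Vim averaged 690.0 ± 166 CPM in EZH2nHom kainate and 427 ± 266 CPM in WT kainate, a log2 difference of 0.69 ± 0.32 (SE, adjusted p in edgeR's quasi-likelihood test = 0.197). Of the EZH2nHom libraries 3 lay inside the WT range and replicate 2 above it. No member had groups that did not overlap, where 4.13% of all genes had every EZH2nHom library above every WT library and 3.13% every one below. The difference was 0.18 ± 0.20 for Gfap (adjusted p in edgeR's test = 0.623), 0.62 ± 0.48 for Nes (0.46) and -0.30 ± 0.11 for Synm (0.0906). Only for Synm did some libraries of EZH2nHom fall below every WT kainate library, 2 of 4. Without WT kainate replicate 4, Vim (0.996, adjusted p in edgeR's test = 0.0406) and Nes (1.28, adjusted p = 0.0466) passed. Synm passed without WT kainate replicate 3 (-0.36, adjusted p in edgeR's test = 0.0478), and without EZH2nHom kainate replicate 2 the Nes difference was -0.07.

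After saline 0 of 4 members passed either, where 13.5% of all genes did, 8.33% as higher in EZH2nHom and 5.16% as lower. The log2 difference of EZH2nHom over WT was -0.06 ± 0.18 for Gfap, -0.02 ± 0.31 for Vim, 0.29 ± 0.46 for Nes and -0.04 ± 0.10 for Synm (SE, adjusted p in edgeR's test between 0.748 and 0.981). All EZH2nHom saline libraries had Y-linked reads and 2 of 5 WT saline libraries had almost none. With the Y-linked sum as a covariate the differences were -0.17, -0.32, -0.14 and 0.014 for the same members, and none passed. Nes came nearest to a separation, with 4 of 5 EZH2nHom saline libraries above every WT saline library. Separation of all libraries occurred in 12.9% of all genes with EZH2nHom higher and in 8.42% with it lower, and in 0 members. The kainate responses themselves differed between EZH2nHom and WT by 0.24 ± 0.27 for Gfap, 0.71 ± 0.45 for Vim, 0.33 ± 0.67 for Nes and -0.26 ± 0.14 for Synm. None of these passed (adjusted p in edgeR's test between 0.625 and 0.898), and 0% of all genes tested did, with 1685 at an unadjusted p under 0.05 and 14 genes called by DESeq2. The genotype comparisons use the same libraries as the kainate comparisons.

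**Figure D3:**
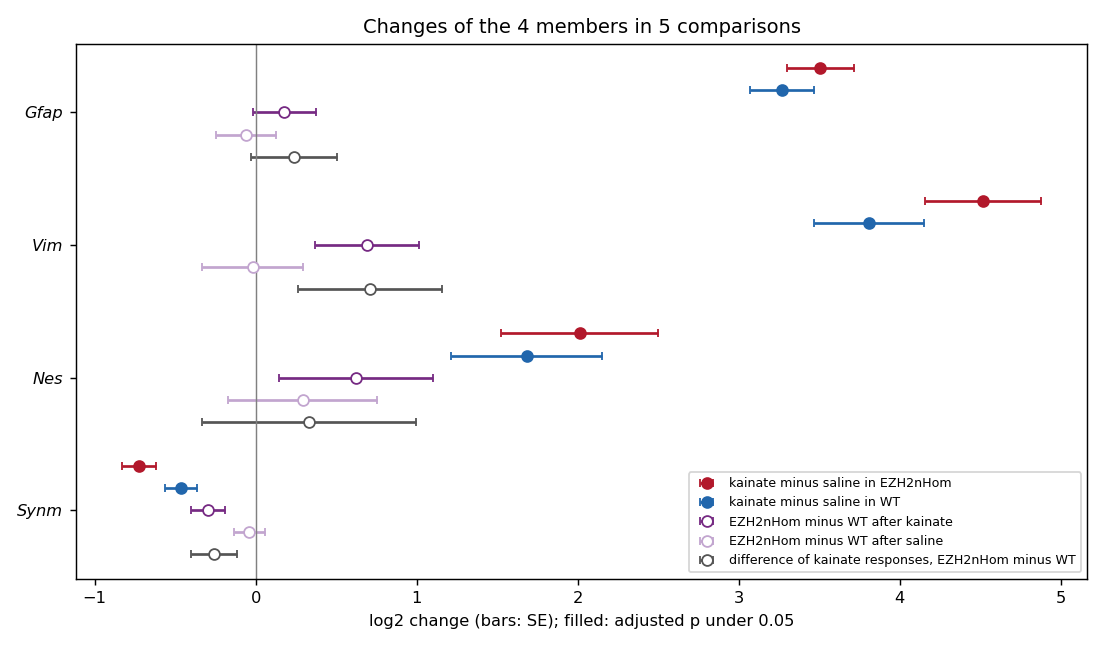
The log2 change of each member (x axis, bars for SE) in 5 comparisons, with filled points where the adjusted p was under 0.05. The kainate changes of both genotypes are filled for every member, and every genotype difference and difference of responses is open.

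The balance among the members was measured within each library as the log2 ratio of a pair in CPM, which does not depend on library scaling. The ratio itself carries the lengths of the genes, while its shift between groups does not. An exact two-sided permutation test over libraries was used, with adjustment over 24 tests, 6 pairs in 4 comparisons, and the smallest p it can give is 0.00794. Of these, 10 passed, 5 of 6 in each kainate comparison and 0 between genotypes. The ratios of Synm to each other member were bound to pass after kainate, since Synm fell and the others rose without overlap. Vim over Gfap averaged -2.42 ± 0.57 in EZH2nHom kainate and -3.44 ± 0.19 in EZH2nHom saline, a shift of 1.02 (SD, n = 4 and 5, adjusted exact p = 0.0190). In WT the same ratio averaged -3.10 ± 0.44 after kainate and -3.48 ± 0.22 after saline, and the shift of 0.38 did not pass (n = 5 each, adjusted exact p = 0.202). The 2 WT kainate libraries with the highest Vim, replicates 3 and 4, had ratios above all WT saline libraries, and the other 3 did not.

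The Nes transcript increased by a smaller factor than that of Vim. Nes over Vim shifted by -2.71 in EZH2nHom and by -2.29 in WT (adjusted exact p = 0.0190 in each, n = 4 against 5 and 5 against 5). Nes over Gfap shifted by -1.69 in EZH2nHom, which did not pass (adjusted exact p = 0.0693), and by -1.91 in WT, which did (adjusted exact p = 0.0190). EZH2nHom kainate replicate 2, at -4.37, lay inside the EZH2nHom saline range of -4.84 to -4.03, and without it the shift was -2.28 and passed (adjusted exact p = 0.039). The ratio of Synm to every other member was lower after kainate. In EZH2nHom its ratio shifted by -4.20 to Gfap, by -5.22 to Vim and by -2.51 to Nes, and in WT by -3.67, -4.05 and -1.76 to the same members (adjusted exact p = 0.0190 for each). These p-values follow from the separation of each member given above, so only the sizes of the shifts are new here.

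**Figure D4:**
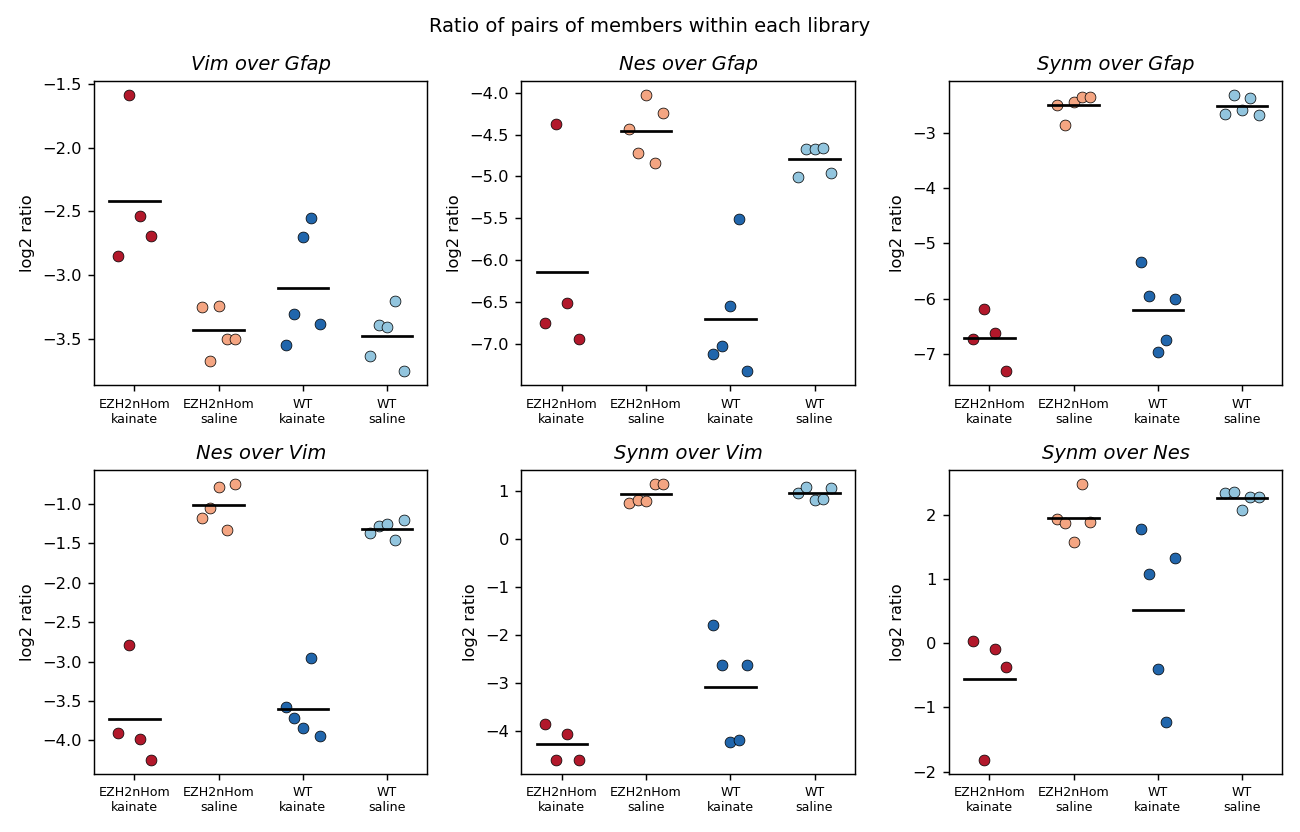
The log2 ratio of each pair of members within a library (y axis) by group, with points for libraries and lines for means. Kainate libraries lie apart from saline libraries in the ratios of Synm to each other member and of Nes to Vim, and Vim over Gfap and Nes over Gfap each have 1 genotype in which they overlap.

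Over the 9 kainate libraries of both genotypes the members did not vary together as 1 block. Within WT kainate, Gfap, Vim and Nes did order the libraries alike, replicates 4, 3, 2, 5 and 1 from high to low. In EZH2nHom kainate, Vim and Nes ran in the order 2, 4, 3 and 1, and Gfap in the order 4, 1, 3 and 2. Nes and Vim ordered the 9 kainate libraries almost identically, with Pearson's r of 0.898 (exact permutation p = 0.00032, adjusted over 12 correlations 0.00384) and Spearman's rho of 0.983 (exact permutation p = 4.96e-05, adjusted 0.000595). EZH2nHom replicate 2 and WT replicate 4 were the highest 2 of 9 for both genes, and WT replicates 1 and 5 the lowest 2. Without WT kainate replicates 1 and 5, the libraries farthest from the median of Vim, r was 0.818. After subtracting each group's mean, r over all 9 was 0.894 (adjusted permutation p = 0.0113). Deviations were permuted across both groups with no allowance for the fitted means, so p-values after this subtraction are approximate. Within a genotype there are fewer than 6 kainate libraries, too few for a correlation of their own.

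Gfap followed Vim less closely. Its r with Vim was 0.756 and rho 0.5 over the 9 kainate libraries, and neither passed (adjusted exact permutation p = 0.0746 and 0.305). EZH2nHom replicate 2, the highest of the 9 for Vim, ranked 8 of 9 for Gfap. Without the 2 libraries farthest from the median of Gfap, r fell to 0.484. After subtracting group means, the r of Gfap with Vim over all 9 was 0.762 and rho 0.7 (adjusted permutation p = 0.0689 and 0.13). Whether this r differs from that of Nes with Vim was not tested. With Nes, Gfap had an r of 0.485 and rho of 0.467 (adjusted exact permutation p = 0.281 and 0.319). Synm ran against Gfap, with an r of -0.722 and rho of -0.717 (adjusted exact permutation p = 0.0859 and 0.156), and an r of -0.379 without EZH2nHom replicate 4 and WT replicate 1. After subtracting group means that r was -0.816 and passed (adjusted permutation p = 0.0399, approximate as above), and rho was -0.817 (adjusted 0.0646). Synm against Vim gave an r of -0.771 and rho of -0.533 (adjusted exact permutation p = 0.0746 and 0.305), and against Nes -0.464 and -0.5 (0.281 and 0.305). Over the 10 saline libraries no pair passed, and the largest r was 0.67, between Vim and Synm (adjusted permutation p = 0.0859, rho 0.673).

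**Figure D5:**
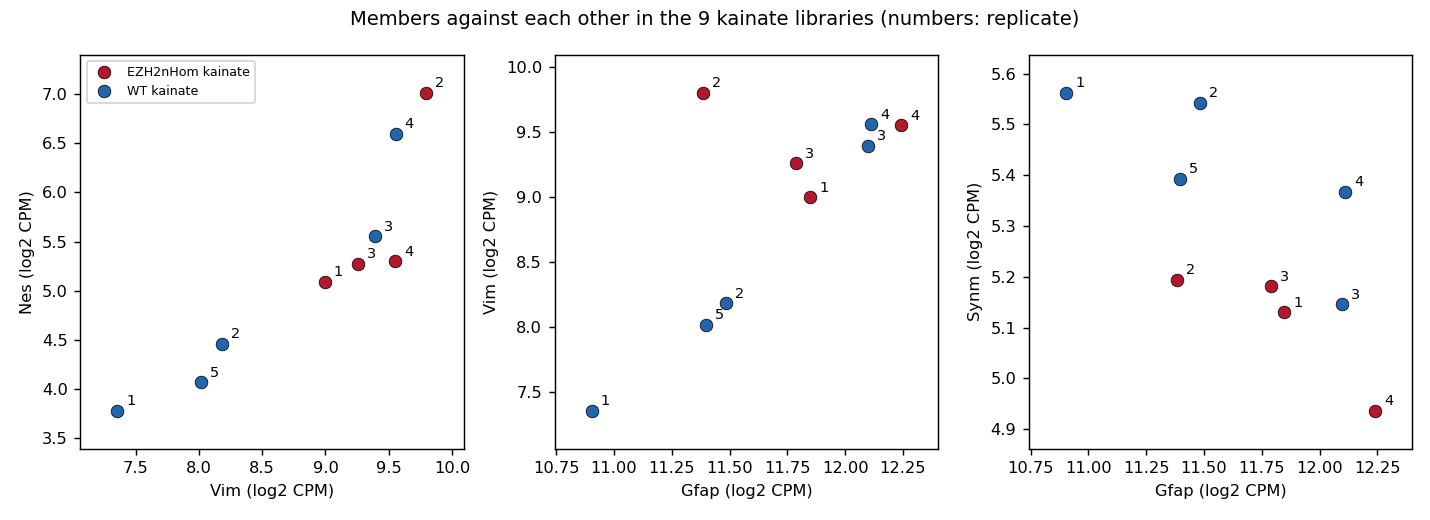
Log2 CPM of Nes against Vim, Vim against Gfap and Synm against Gfap in the 9 kainate libraries, numbered by replicate and coloured by genotype. Nes and Vim line up in nearly the same order of libraries, while EZH2nHom replicate 2 has the highest Vim beside one of the lowest Gfap levels.

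Microglia markers and proliferation genes rose after kainate as Gfap, Vim and Nes did, while small structural RNAs did not rise in EZH2nHom. The part of any list in the results was not tested. Among all genes tested, 14.3% passed as higher and 11.8% as lower in EZH2nHom after kainate, and 9.47% and 2.57% in WT. Of 12 microglia markers 11 rose in EZH2nHom and 12 in WT. Their summed level was 1331 to 2723 CPM in EZH2nHom kainate, 391 to 443 CPM in EZH2nHom saline, 872 to 2743 CPM in WT kainate and 459 to 519 CPM in WT saline. Of 25 proliferation genes 24 rose in EZH2nHom and 23 in WT, with summed levels of 268 to 777 CPM in EZH2nHom kainate, 113 to 149.5 CPM in EZH2nHom saline, 204 to 701 CPM in WT kainate and 103 to 117 CPM in WT saline. WT kainate replicates 3 and 4, the highest WT libraries for Vim and Nes, were also the highest WT libraries for both sums. EZH2nHom kainate replicate 2, the highest for Vim and Nes, was the lowest of its group for both sums. Of 9 tested markers of blood leukocytes and border macrophages 4 rose in EZH2nHom and 3 in WT. Small structural RNAs took 0.115 to 0.674% of reads in EZH2nHom kainate and 0.149 to 0.676% in EZH2nHom saline. They took 0.0425 to 0.169% in WT kainate and 0.0286 to 0.0565% in WT saline. Whether the making of the libraries or the tissue sets this share was not tested. WT kainate replicate 1, the lowest of its group for Gfap, Vim and Nes, was the lowest of it for this share too. Of 9 such RNAs tested, 0 rose after kainate in EZH2nHom and 2 in WT, and 5 were higher in EZH2nHom than in WT after saline. With the share as a covariate no call on a member changed. The lymphocyte markers Cd3e, Cd3g, Cd8a and Ms4a1 were among those with too few reads to be tested.

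Markers of vessel and meningeal cells, which also make vimentin or nestin, moved little as lists. Of 12 endothelial markers 0 rose in either genotype and 1 fell in EZH2nHom, with summed levels of 161 to 195 CPM in EZH2nHom kainate, 141 to 208 CPM in EZH2nHom saline, 139.6 to 229 CPM in WT kainate and 155 to 194 CPM in WT saline. EZH2nHom kainate replicate 2 and WT kainate replicates 3 and 4, the libraries with the 3 highest Nes levels, had the highest endothelial sums of their groups. Of 12 pericyte and smooth muscle markers 2 rose and 1 fell in EZH2nHom, and 1 rose and 1 fell in WT. Tagln, an actin-binding protein of smooth muscle, rose by 2.03 ± 0.70 in EZH2nHom and 2.32 ± 0.69 in WT on the log2 scale (SE, adjusted p in edgeR's test = 0.04 and 0.0336). In WT, Tagln ran from 2.46 to 31.7 CPM after kainate (median 2.90) and from 1.56 to 4.47 CPM after saline (median 2.675). Most WT kainate libraries thus lay within the saline range. Myh11, the smooth muscle myosin heavy chain, fell by 0.99 ± 0.24 in EZH2nHom and by 0.83 ± 0.23 in WT. Of 12 fibroblast and meningeal markers 1 rose and 1 fell in each genotype. In EZH2nHom kainate replicate 2 these summed to 2394 CPM, against 726 to 936 CPM in the other 3 libraries of that group. Of that sum 1835 CPM came from Apod, which encodes apolipoprotein D and was the list's riser in EZH2nHom (2.39 ± 0.45). Without Apod the other 11 markers summed to 559 CPM in that library and 355 to 485 CPM in the other 3. Of 12 neural stem and radial glia markers 2 rose in each genotype and 1 fell in EZH2nHom. The risers were Thbs4 (1.93 ± 0.25 in EZH2nHom, 2.19 ± 0.24 in WT) and Sox4 (0.67 ± 0.18 in EZH2nHom, 0.68 ± 0.18 in WT). Ependymal and choroid plexus markers ran from 23.7 to 3989 CPM in sum over the libraries, with Ttr, the choroid plexus transthyretin, at up to 3667 CPM, and 0 of 10 passed in either genotype.

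Astrocyte markers as a list had median changes below the changes of Gfap and Vim. Of 19, 9 rose and 1 fell in EZH2nHom (median log2 change 0.45), and 5 rose and 1 fell in WT (0.28). Across all genes tested 14.3% rose and 11.8% fell in EZH2nHom, and 9.47% rose and 2.57% fell in WT. Aldh1l1, a folate enzyme used as a marker of all astrocytes, rose by 1.51 ± 0.15 in EZH2nHom and 1.02 ± 0.14 in WT. Aqp4, the astrocyte water channel, rose by 1.25 ± 0.20 in EZH2nHom and 0.97 ± 0.19 in WT, and Gpc5, a glypican, fell by 0.66 ± 0.15 and 0.66 ± 0.14. The list summed to 7826 to 10468 CPM in EZH2nHom kainate, 7999 to 8822 CPM in EZH2nHom saline, 10802 to 11707 CPM in WT kainate and 10169 to 10708 CPM in WT saline, so the labelled tissue carried its astrocyte markers in every library. Between genotypes, 0 of the 19 were higher and 6 lower in EZH2nHom after saline, and 1 was higher and 2 lower after kainate. For all genes tested the shares were 8.33% higher and 5.16% lower after saline, and 4.56% and 3.04% after kainate. Of 30 reactive astrocyte genes other than the members, 27 rose and 1 fell in EZH2nHom (median 3.09) and 23 rose and 0 fell in WT (median 2.19). Of these 30, 5 were higher and 0 lower in EZH2nHom than in WT after kainate, and 0 passed between genotypes after saline. Serpina3n, a secreted protease inhibitor, rose by 4.50 ± 0.46 in EZH2nHom and 3.89 ± 0.44 in WT, and Amigo2, an adhesion protein, was the gene that fell in EZH2nHom (-0.69 ± 0.21). Neuron markers went the other way, with 6 of 12 lower in EZH2nHom and 3 of 12 in WT. Of 12 oligodendrocyte lineage markers 3 fell in EZH2nHom, and 1 rose and 1 fell in WT.

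Other intermediate filament genes were counted family by family. Of 5 neuronal filament genes, 1 rose and 1 fell in EZH2nHom (median 0.04) and 0 passed in WT (median 0.33). Prph, the peripherin of peripheral neurons, had means of 2.75 CPM in EZH2nHom kainate and 0.809 CPM in EZH2nHom saline (1.76 ± 0.39, adjusted p in edgeR's test = 0.0028). Ina, alpha-internexin, fell by 0.34 ± 0.11 in EZH2nHom (adjusted p in edgeR's test = 0.0224). The neurofilament genes Nefl, Nefm and Nefh had log2 changes of -0.26, 0.22 and 0.04 in EZH2nHom and 0.04, 0.39 and 0.32 in WT, none of which passed. Of 13 keratins tested, 4 fell in EZH2nHom and 2 in WT, and 0 rose. Krt73 had log2 changes of -1.03 ± 0.34 in EZH2nHom and -1.10 ± 0.32 in WT, and Krt77 of -0.67 ± 0.21 and -0.69 ± 0.20. Krt222 and Krt18 fell in EZH2nHom (-0.63 ± 0.13 and -2.74 ± 0.94) and had -0.25 and -1.47 in WT, which did not pass. Krt18 ran from 0.803 to 11.1 CPM within EZH2nHom saline, where Ttr ran from 15.8 to 3408 CPM. A link between them was not tested. Of Des, Sync, Bfsp1 and Bfsp2, the muscle and lens types, only the lens gene Bfsp2 passed, in WT alone (1.13 ± 0.32, adjusted p in edgeR's test = 0.0265), with 0.52 ± 0.33 in EZH2nHom. Of the nuclear lamins, Lmnb1 passed in both genotypes (0.72 ± 0.22 in EZH2nHom, 0.92 ± 0.21 in WT), and Lmna in EZH2nHom (0.89 ± 0.22; 0.44 ± 0.21 in WT).

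Proteins that link, chaperone or modify these filaments were examined as a further part of the pathway. Of 12 linkers and partners tested, 5 rose in EZH2nHom (median 0.30) and 1 in WT (median 0.21), and 0 fell. More genes of the whole table passed in EZH2nHom too, 14.3% as higher and 11.8% as lower, against 9.47% and 2.57% in WT. Tln1, talin, which ties integrins to actin, rose by 1.05 ± 0.22 in EZH2nHom and 0.88 ± 0.21 in WT. Plec, plectin, the crosslinker of filaments to other structures, rose by 0.51 ± 0.14 in EZH2nHom and had 0.18 ± 0.13 in WT. The small heat shock protein gene Hspb1 rose by 4.45 ± 0.88 in EZH2nHom and had 2.10 ± 0.80 in WT (adjusted p in edgeR's test = 0.105), and its relative Cryab, which binds GFAP filaments, rose by 0.61 ± 0.21 and had 0.34 ± 0.20. The desmosomal plakin gene Ppl rose by 1.93 ± 0.46 in EZH2nHom and had 0.72 ± 0.44 in WT. In the test of the difference in responses between genotypes, 0 of the 12 passed, where 0% of all genes tested did. This does not show that the responses were alike.

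Of 13 enzymes that modify or cleave filament proteins, 6 rose and 3 fell in EZH2nHom (median 0.41), and 6 rose and 0 fell in WT (median 0.62). All genes tested gave 14.3% higher and 11.8% lower in EZH2nHom, and 9.47% and 2.57% in WT. The mitotic kinases Cdk1, Aurkb and Plk1, which phosphorylate vimentin as cells divide, rose by 3.76 ± 0.46, 2.93 ± 0.48 and 3.19 ± 0.49 in EZH2nHom and by 3.40 ± 0.45, 2.82 ± 0.47 and 2.53 ± 0.47 in WT. They also belong to the proliferation list described above. The calcium-activated proteases Capn1 and Capn2 rose by 0.39 and 0.87 in EZH2nHom and by 0.40 and 0.64 in WT. Pak1, Prkaca and Cdk5 fell by 0.41, 0.23 and 0.19 in EZH2nHom.

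Of 24 signalling and transcription factor genes known to act on the members, 14 rose and 1 fell in EZH2nHom (median 0.43), and 8 rose and 0 fell in WT (median 0.10). Here too the shares of all genes tested were larger in EZH2nHom, 14.3% higher and 11.8% lower, than in WT, 9.47% and 2.57%. Osmr, the oncostatin M receptor, averaged 65.4 CPM in EZH2nHom kainate and 6.15 CPM in EZH2nHom saline, a log2 change of 3.41 ± 0.46 (SE). In WT it averaged 31.7 CPM after kainate and 5.38 CPM after saline, a change of 2.55 ± 0.44. Socs3, the feedback inhibitor that STAT3 induces, rose by 4.82 ± 0.80 in EZH2nHom and 3.25 ± 0.77 in WT, and Stat3, the factor that drives Gfap in astrocytes, by 1.72 ± 0.28 and 1.05 ± 0.26. Il6st, the shared receptor chain gp130, rose by 0.66 ± 0.10 in EZH2nHom and 0.61 ± 0.09 in WT. Zeb1, a repressor, was the gene that fell in EZH2nHom (-0.25). Between genotypes 0 were higher and 5 lower in EZH2nHom after saline, and 0 passed after kainate. Among all genes tested 8.33% were higher and 5.16% lower after saline, and 7.61% passed after kainate. For the difference between genotypes in the kainate responses, 0 of 24 passed, where 0% of all genes tested did.

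The genes whose deviations from their group means ran closest to each member over the 19 libraries were named as a description, out of 15256 genes averaging at least 1 CPM. For Gfap they included Atp6v0a2 (r = 0.942), Dhrs1, Irgm1 and Ss18 (0.933). For Vim they were Cnn3 (0.961), Calu, Tgif1, Anxa2 and P4hb (0.944), with the actin-binding calponin Cnn3 and annexin A2 among them. For Nes they were Osmr (0.971), Flnc, Tpm4, Asah1 and Tm4sf1 (0.939). Flnc encodes filamin C and Tpm4 a tropomyosin, both actin-binding proteins. For Synm the closest was Bbs2 at 0.841, followed by genes that included Ass1, Trpc4 and Evpl (0.738), so that no gene tracked Synm as closely as the best did for the other members. The coefficient of variation of Synm within groups was 7.98 to 12.8%, against up to 62.1% for Vim and 88.5% for Nes. The part of this narrow spread in the lower r was not tested. The libraries share depth and cell makeup, which these values also carry. Gfap, Vim and Nes spread more in each kainate group than in the saline group of the same genotype. For Nes the coefficient of variation was 76.2% in EZH2nHom kainate and 88.5% in WT kainate, against 21.4% and 9.3% after saline. A few kainate libraries therefore weigh most in the r values of these members. Among the members themselves, deviations of Vim and Nes had an r of 0.873, those of Gfap and Vim 0.733, those of Gfap and Nes 0.399 and those of Gfap and Synm -0.459.

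Without that subtraction, the gap between kainate and saline libraries enters the likeness. Over the same libraries Gfap then ran closest to the complement gene C4b (r = 0.994), with Vim next at 0.982, followed by Ggta1, P4ha3 and Dhrs1 (0.981 each). Vim ran closest to Serpina3n (0.992), Mmp19 (0.99), Akr1b8, S100a6 and Timp1 (0.987), and Nes to genes that included Plce1 (0.972), P4hb and Lilr4b (0.965). Synm ran closest to Gnai1 (0.916), Grm5, Vldlr, Galnt13 and Brwd1 (0.895), which include the G protein subunit Gnai1 and the glutamate receptor Grm5.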

How the data were processed

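Total RNA depleted of cytoplasmic and mitochondrial ribosomal RNA was sequenced from 19 hippocampal samples, per the labels' protocols. The authors deposited raw counts of reads for each Ensembl gene as whole numbers, and their deposited table of tests served only to pair gene IDs with symbols. The submitters' processing notes name mm39, DESeq2 and DESeq without versions, while the aligner, counter, annotation release and strand setting are not given in the sources used here. No column of per-sample values was left unmapped (0 columns). The title numbers of the libraries are used throughout.

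The fit used edgeR 4.0.16 and limma 3.58.1 under R 4.3.3. After filterByExpr by group and TMM scaling, 1 quasi-likelihood model of the 4 group means took in all 19 libraries. Two-sided p-values were adjusted by Benjamini and Hochberg's method over 19234 genes, with a threshold of 0.05. For CPM, library size is total reads multiplied by the TMM factor, and log2 CPM had a prior count of 2. Errors are SE for changes and SD for levels. The fit was tested on simulated data for kainate minus saline in WT with all 19234 genes. Of 50 genes each changed by a log2 of -2, -1, 1 and 2, it called 50, 44, 47 and 49. The changed genes were drawn from the better expressed genes only, so recovery of weakly expressed genes was not measured. Ratios and correlations were tested in Python 3.11.15 with numpy 2.4.6, with exact permutations, or 100000 random ones for correlations over 10 libraries. For deviations from group means the permutation p-values are approximate. Exonic lengths came from GENCODE M21 and promoters from RefSeq, both of an older build than the counts. Of the symbols, 32313 came from the authors' table and 20022 from a reference table.

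Named genes were the members, Ezh2, the 5 genes most like each member by each measure, and of each list up to 4 genes with the smallest p, lists of 5 or fewer in full and any lone gene of its direction. The few others named were chosen after their values were seen. A few genes that this rule names are not reported here. Members and lists were chosen with earlier results of these data known. Alternatives were DESeq2 1.42.0 (size factors or Wald test), no filter or a stricter one, only the groups compared, a replicate block, Y-linked genes or the share of small structural RNAs as covariate, another prior count and leaving out each library.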

Additional observations from a re-analysis of the deposited data

Results flagged for a closer look

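Gaps within a group were checked for 16 combinations of member and group, where chance picks out about 1 in 20, and 2 held a library far from its mates. Nes in EZH2nHom kainate replicate 2 stood at 129.0 CPM, with the gap to the nearest library taking 0.944 of the range of the group, past the critical value of Dixon's test for 4 libraries. That library also stood apart on the second principal component, had the highest Vim of the kainate libraries and the highest Apod of its group at 1835 CPM, and their part in the value was not tested. Gfap in EZH2nHom saline replicate 5 stood at 258.7 CPM, below its 4 mates, with a gap of 0.719 of the range, past the critical value for 5 libraries. The same library was the lowest of the 10 saline libraries for Vim.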

How the results depend on the processing

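Gfap, Vim and Synm kept their direction and their call after kainate in both genotypes under every alternative except 1 added after seeing the data. This was the 6 WT libraries of shared code prefix with prefix as block, in which Gfap (3.12), Vim (3.31), Nes (1.22) and Synm (-0.60) did not pass and 0 genes were called. The log2 change of Nes in WT also missed the threshold with no filter on low counts (1.70) and with the replicate block (1.29), and ran from 1.03 to 1.88 with 1 library left out. The title numbers were not taken to pair the libraries, since the correlation of deviations within a number was not over 0.1 for every number. It ran from 0.077 to 0.309 in WT and from -0.055 to 0.09 in EZH2nHom, and 4 of 5 WT and 1 of 4 EZH2nHom numbers correlated best with their own, which for WT is a hint of pairing from the data. The block moved the count for the difference of responses to 1 gene, and DESeq2 moved it to 14. The count for EZH2nHom against WT after kainate was 959 with no filter, 4 with only the groups compared and 2224 with DESeq2, and the other counts with only the groups compared were 3066 for kainate in EZH2nHom and 5604 for genotype after saline. With 1 library left out, counts ran from 1365 (without WT kainate replicate 4) to 2675 for kainate in WT, from 1675 (without WT saline replicate 3) to 2385 for genotype after saline, from 670 (without WT kainate replicate 2) to 2193 (without WT kainate replicate 4) for genotype after kainate and from 0 to 4 for the difference of responses. The genotype difference after saline changed sign for Nes (-0.14) and Synm (0.014) with a Y-linked gene covariate. With 1 library left out it ran from -0.12 to 0.0099 for Gfap, from -0.12 to 0.065 for Vim and from -0.12 to 0.0095 for Synm. After kainate it ran from 0.49 to 0.996 for Vim, from -0.065 to 1.28 for Nes and from -0.36 to -0.24 for Synm, and the difference of responses for Nes from -0.36 to 0.99. Of the 24 ratio tests, 5 to 11 passed with 1 library left out, and the 5 came from leaving out EZH2nHom saline replicate 1, 2, 3 or 5. With fewer libraries the smallest exact p is larger. Genotype differences in ratios changed sign with 1 library left out, with ranges after kainate of -0.031 to 0.86 for Nes over Gfap and -0.44 to 0.050 for Nes over Vim. After saline they ranged from -0.027 to 0.11 for Vim over Gfap, from -0.013 to 0.11 for Synm over Gfap and from -0.071 to 0.029 for Synm over Vim. Also after saline, Nes over Vim (0.377) and Synm over Nes (-0.449) each passed between genotypes with 1 library left out (adjusted exact p = 0.0272). Deviations from group means gave -0.82 for Synm with Gfap in kainate libraries, which passed by an approximate permutation p. The cause was not tested for any of these changes unless stated.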
